A study of Mus musculus with 8 samples.

Results

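The clustered protocadherin genes of chromosome 18 were examined for DNA double-stranded breaks (DSBs) in mouse embryonic stem (ES) cells that lack the chromatin remodeler Chd1. The genes were chosen by name and position: all protein-coding genes of the GENCODE M1 annotation of the mouse genome (build mm9) on chromosome 18 whose symbols begin with Pcdha, Pcdhb, Pcdhga, Pcdhgb or Pcdhgc. This gave 24 of 22367 protein-coding genes: Pcdha11 and Pcdha3 in the alpha cluster, 21 genes of the beta cluster from Pcdhb1 to Pcdhb22, and Pcdhgc5 in the gamma cluster. The annotation files nearly all alternative alpha transcripts under Pcdha11 and all gamma transcripts under Pcdhgc5, so that each alternative promoter is named here by its transcript (Pcdha11-202, for example). The 24 genes had 46 distinct transcription start sites (TSSs) of protein-coding transcripts, 11 in alpha, 25 in beta and 10 in gamma. Promoter counts, exon counts and GC ranges cover these annotated starts only. Any alternative promoter or variable exon that the annotation lacks is left out of them.

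DSB-seq labels free DNA ends in fixed nuclei with biotinylated nucleotides, pulls the labelled DNA down and sequences it, so that places where breaks recur appear as peaks of reads. Chd1 KO cells were an established line with both Chd1 alleles deleted (Chd1Δ/Δ). Control cells, labelled WT, carried 1 deleted and 1 floxed allele (Chd1fl/Δ), so both groups carried at least 1 deleted allele. Each genotype had 2 replicates, which the authors combined before peaks were called. There is therefore 1 peak list per genotype, no value has a replicate error, and no difference between the genotypes was tested. The paper describes the replicates as biological, and the labels do not say whether they came from separate cultures. The cell type and the loss of Chd1 could not be checked from peak lists, which hold no expression.

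Clustered protocadherins are cell-surface adhesion proteins that bind copies of themselves on neighbouring cells, and they are best known in neurons, where each cell uses its own small choice of them. In the alpha and gamma clusters, each variable exon has its own promoter and encodes the extracellular part, the membrane span and the start of the cytoplasmic tail, and it is spliced to constant exons that encode the shared end of the tail. The beta genes consist of a single coding exon each and have no constant exons. The choice of promoter involves DNA methylation, the insulator protein Ctcf and the cohesin ring.

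The Chd1 KO list held 5671 peaks, of which 163 were on chromosome 18, and the control list held 54, of which 1 was on chromosome 18. The depth recovered from the lowest background in each list was 29800000 reads in Chd1 KO and 27600000 reads in control. The weakest Chd1 KO peak had 13 extended reads at its summit, the median peak had 21, and sites below that reach are outside these lists.

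No clustered protocadherin promoter had a break peak in either genotype. In Chd1 KO, 0 of 24 genes had a summit within 1 kb of a TSS (a count that leaves room for a share of 12.5% at most), whereas 3516 of all 22367 protein-coding genes (15.7%) had one. In control, 0 of 24 genes had a summit, as had 0 of all 22367 genes (0%), which allows a share of up to 0.0134%. Counted by promoter, 0 of 46 TSSs had a Chd1 KO summit within 1 kb, which allows a share of up to 6.52%, against 6686 of 46024 TSSs of all protein-coding genes (14.5%). These limits and all intervals given here cover counting error only, and neighbouring promoters of a cluster are related sequences rather than independent draws. Some of the 46 windows also overlap, as at the starts of Pcdhb22, so that the limit of 6.52% may be too low.

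The absence of summits was not limited to the promoters. The alpha cluster (chr18:37089939-37347311, 257 kb), the beta cluster (chr18:37424652-37681073, 256.4 kb) and the gamma cluster (chr18:37833989-38001527, 168 kb) each held 0 Chd1 KO and 0 control summits. The intervals between the clusters held none either, so that the 912 kb from the first alpha TSS to the end of the gamma constant exons contained no called break site. No member lay just outside the window. The nearest TSS to any Chd1 KO summit was that of Pcdhgc5-209, 392 kb away, followed by Pcdhgc5-203 at 392 kb and Pcdhgc5-205 at 396 kb. The farthest was a start of Pcdhb8, 839 kb away. The only control peak on chromosome 18 had its summit 50.6 Mb beyond the last member, with 25 reads and a fold enrichment of 6.58 over the local background.

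The 2 Chd1 KO summits that flank the clusters lay at GC-rich promoters. On the upstream side the summit was 414 kb before the first alpha TSS and 52 bp upstream of a TSS of Hbegf, which encodes a growth factor of the EGF family. This peak had 17 reads at its summit, a fold enrichment of 3.78 and a GC content of 77.5% over the 200 bp around the summit. On the downstream side the summit was 370 kb past the last gamma exon and lay 405 bp downstream of a TSS of Pcdh1, a protocadherin outside the clusters. This peak had 20 reads, a fold enrichment of 3.95 and a summit GC content of 71%. Both folds were below the median of the Chd1 KO list, 4.56. The distance from one summit to the other was 1696 kb, and it held 50 protein-coding genes, the 24 clustered protocadherins and 26 others. Of 5621 distances between neighbouring Chd1 KO summits on the autosomes, 298 (5.30%) were at least as long, and 17 held as many genes. Among the 162 on chromosome 18, 10 were at least as long and this was the only one with as many genes. Without the 24 members this distance would hold 26 genes, and 69 autosomal distances held at least that many.

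**Figure D1:**
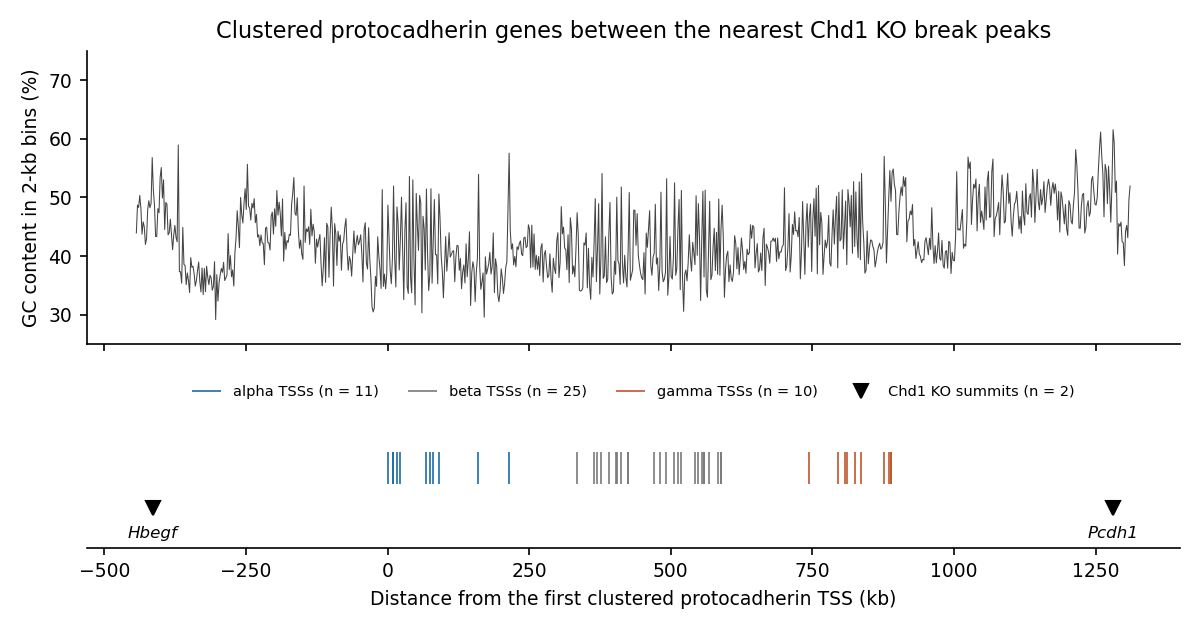
The upper panel plots GC content (%) in 2-kb bins and the lower panel marks the 46 TSSs and the 2 flanking Chd1 KO summits, against distance in kb from the first clustered protocadherin TSS. Narrow GC-rich spikes stand at the variable exons of a GC-poor region, and no summit lies among the 11 alpha, 25 beta and 10 gamma TSSs.

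Clustered protocadherin promoters were GC-poor. Within 1 kb of the TSS their GC content ranged from 40.2% at Pcdhb10 to 58.4% at Pcdha11-202, with a median of 42.9%, and 32 of the 46 were below 45%. The median over the TSSs of all protein-coding genes was 51.6%, that of TSSs with a Chd1 KO summit was 59.3% and that of TSSs without one was 50.3%. The members therefore lay, at the median, below even the TSSs without a summit. By cluster the median was 42.4% in alpha, 42.1% in beta and 46.6% in gamma. CpG dinucleotides were counted in the same window, with medians of 2.80 per 100 bp in alpha, 1.50 in beta and 2.67 in gamma.

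Within the members, the 1 kb before the TSS was poorer in GC than the 1 kb after it. The median GC content was 37.1% in the 1 kb before the TSS and 49.0% in the 1 kb after it, where the variable exon lies. The same split was not computed for other genes. The contrast was widest in alpha, at 35.2% before and 49.9% after, followed by gamma at 41.6% and 54.0% and beta at 36.9% and 48.0%. At the first alpha promoter, Pcdha11-204, the values were 34.6% before and 49.2% after the TSS. At the first beta promoter, Pcdhb1, they were 42.1% and 52.6%, and at the first gamma promoter, Pcdhgc5-207, they were 42.5% and 51.1%. For 15 of the 46 TSSs, 11 in alpha, 4 in beta and 0 in gamma, the annotated start is the first coding base, so that these transcripts may be annotated without their full 5′ end.

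The alpha promoters included the member nearest to a broken promoter in its base composition. Pcdha11-202, the last alpha start (chr18, position 37303623), had a GC content of 58.4% within 1 kb, 67.3% within 500 bp and 70.5% within 250 bp of the TSS. Its richest 200-bp stretch reached 76.0%, its longest uninterrupted run of G and C was 20 bp, and it held 5.95 CpG per 100 bp. Even so it had no summit in either genotype, and the nearest Chd1 KO summit was 628 kb away. Among 839 TSSs of protein-coding genes within 2.5 percentage points of both GC contents and within 2 bp of its run length, 19.9% had a Chd1 KO summit (Wilson 95% interval 17.3% to 22.7%). The next alpha promoters, Pcdha11-210 and Pcdha11-201, had 53.0% and 52.2%, and the start of Pcdha11-210 lies within the variable exon of Pcdha11-209. The other 8 alpha promoters, Pcdha3 among them at 40.5%, lay between 40.3% and 43.6%.

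The beta promoters formed the most uniform and the least GC-rich group. They ranged from 40.2% at Pcdhb10 to 47.4% at Pcdhb1, and no 200-bp stretch within 1 kb of a beta TSS exceeded 61.5%. The last beta gene, Pcdhb22, had 41.2% at both of its starts. The longest run of G and C near a beta TSS was 13 bp, at Pcdhb15, and the median was 8 bp.

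The gamma promoters lay between 42.9% and 53.4%. Pcdhgc5-208, with 53.4%, 60% in the 1 kb after the TSS and 5.95 CpG per 100 bp, was the richest. Pcdhgc5-209, Pcdhgc5-203 and Pcdhgc5-205, the 3 starts that follow it, had 51.7%, 51.2% and 50.2%. The longest runs of G and C near gamma TSSs were 13 bp at Pcdhgc5-202 and 12 bp at Pcdhgc5-206 and Pcdhgc5-208.

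The share of all TSSs with a Chd1 KO summit rose steeply with GC content, and the members were concentrated where it was low. Of TSSs with 40% to 45% GC, 0.138% had a summit (8 of 5785), and 32 of the 46 member TSSs fell here. With 45% to 50% the share was 2.04%, with 7 members. With 50% to 55% it was 8.95%, with 6 members, and with 55% to 60% it was 25.9%, with the single member Pcdha11-202. Applied to the members bin by bin, these shares come to 0.983 TSSs with a summit among 46, where 0 were found. The count of 0 thus lies within 1 promoter of the value that the GC bins give. At the level of genes, the corresponding value was 0.432 of 24, and with the shares of autosomal genes that have 1 TSS it was 0.0722. Those last shares were applied to all 24 members, although some have several TSSs, Pcdha11 and Pcdhgc5 10 each. Each gene was binned at its outermost TSS, so that Pcdha11 counted at 41.9% despite the 58.4% of Pcdha11-202. Both gene-level values may therefore be low.

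The same held for measures of the richest stretch, which were added after the data were seen. The highest GC content of a 200-bp stretch within 1 kb of the TSS had a median of 58.5% in the members, 82.0% at TSSs with a Chd1 KO summit and 65.5% at TSSs without one. All members but Pcdha11-202 were at or below 69.0%, and of TSSs with 65% to 70% only 0.357% had a summit. By cluster the median was 67% in alpha, 56.0% in beta and 62.8% in gamma. The longest run of G and C had a median of 8 bp in the members, 21 bp at TSSs with a summit and 11 bp at TSSs without one. For 10 member TSSs it was at most 7 bp, and 0 of 9043 TSSs with such short runs had a Chd1 KO summit, which allows a share of up to 0.0332%. Bin by bin the shares come to 0.311 member TSSs for the richest stretch and 0.888 for the run.

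**Figure D2:**
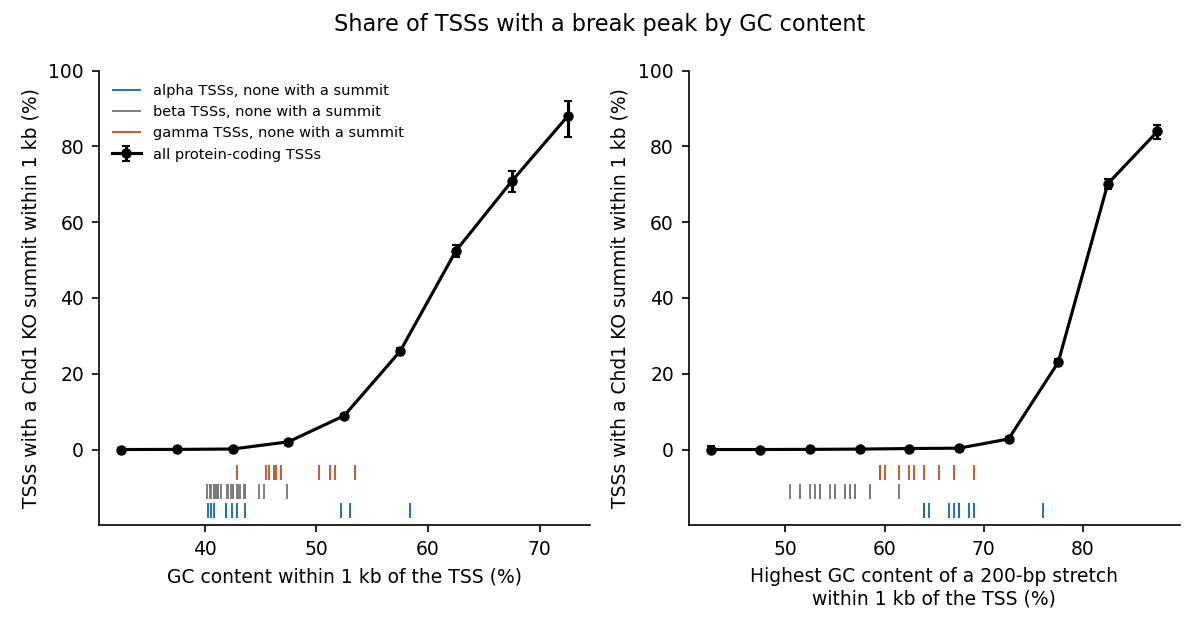
The share of all protein-coding TSSs with a Chd1 KO summit within 1 kb (points, %, with Wilson 95% intervals; bins of at least 100 TSSs) is plotted against GC content within 1 kb (left) and against the highest GC content of a 200-bp stretch (right), with a tick for each member TSS below 0. The share climbs above 50% at GC contents where no member lies, and only Pcdha11-202, at 58.4% and 76.0%, reaches the rising part of the right-hand curve.

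Chd1 KO summits near TSSs were richer in GC than most stretches of the clusters. Over the 200 bp around the summit, the 3527 Chd1 KO summits within 1 kb of a TSS had a median GC content of 78% and a 10th percentile of 71%. Only 25 of them (0.709%) were below 58.5%, the median of the members' richest stretches. Over all 5671 Chd1 KO summits, wherever they lay, 1254 (22.1%) were below that value and the 10th percentile was 51.5%. This comparison favours the members, since the highest value of each promoter window is set against a single position. Across the clusters, cut into 3435 adjacent stretches of 200 bp, 1 stretch was at or above 75%, the median of all 5671 Chd1 KO summits, and it lay in alpha. At or above their lower quartile of 60% were 150 stretches (4.37%), 51 in alpha, 47 in beta and 52 in gamma. The 54 control summits had a median of 49.0%.

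**Figure D3:**
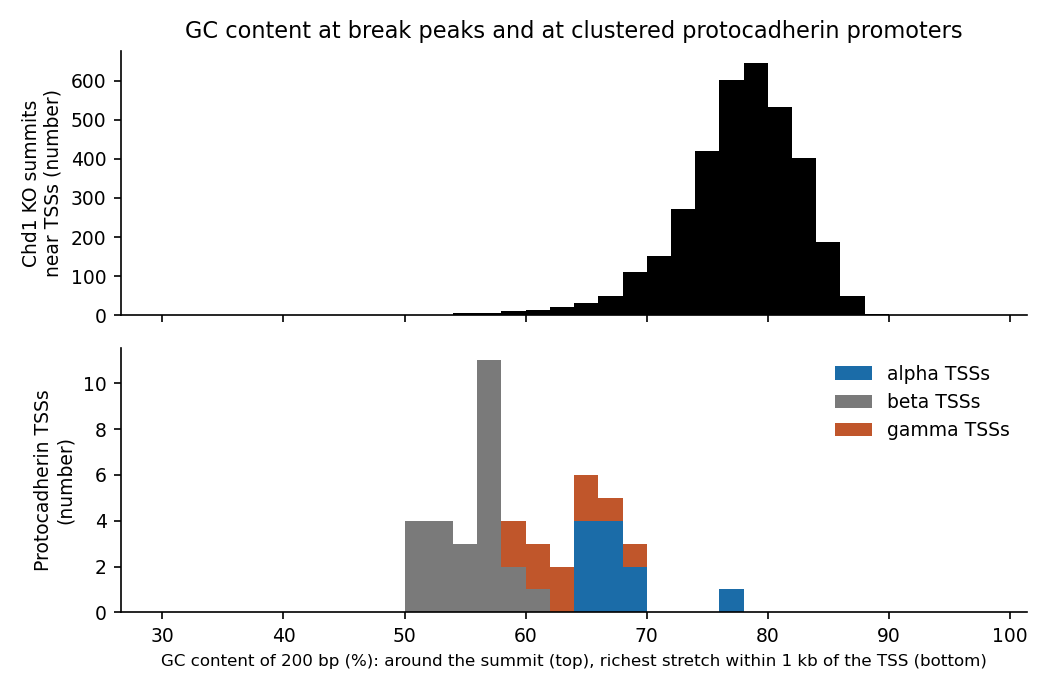
Histograms of the GC content of 200 bp (%), around the 3527 Chd1 KO summits near TSSs (top, number of summits) and for the richest stretch within 1 kb of each of the 46 member TSSs (bottom, number of TSSs, by cluster). The summits centre on 78%, the beta promoters end at 61.5%, the gamma promoters at 69.0%, and 1 alpha promoter at 76.0% overlaps the bulk of the summits.

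The variable exons held no summit. There were 40, 10 in alpha, 21 in beta and 9 in gamma, and 0 of 40 held a Chd1 KO or a control summit, which allows a share of up to 7.50%. Of all exons with coding sequence in protein-coding genes, 0.751% held a Chd1 KO summit. Of first exons of at least 1 kb with coding sequence, 8.18% did (175 of 2140). Those that did had a median GC content of 64.2% and those that did not 50.2%. The variable exons ranged from 41.2% to 56.8% with a median of 50.1%, and among 1290 such first exons in that range 2.87% held a summit (Wilson 95% interval 2.09% to 3.93%), so that the count of 0 among 40 is near this background.

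Among the variable exons, the alpha set was the most alike, at 50.8% to 55.1% GC and 2382 to 2562 bp. The variable exon of Pcdha11-203, at 55.1%, was its richest, and that of Pcdha11-202 (chr18:37303623-37306184) had 54.5% with a richest stretch of 70.5%, the highest of any variable exon. The gamma exons ranged from 50.6% to 56.8%, and that of Pcdhgc5-208 (chr18:37966064-37968631) was the richest of all 40. The beta exons, which include the 3′ end of each transcript, were longer, up to 7131 bp at Pcdhb19, and poorer, with a median of 47.1%. Within their coding part the beta genes were more alike, for example 48.3% at Pcdhb1, 51.1% at Pcdhb19 and 53.0% at Pcdhb22. No variable exon had a run of G and C over 13 bp.

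The constant exons held no summit either, 0 of 6 in both genotypes, and with so few exons the limit of 50.0% says little. The first constant exon was 59 bp long in alpha (chr18:37315809-37315867) and in gamma (chr18:37984675-37984733), with 66.1% GC in both. The second was 89 bp long, with 60.7% in alpha and 51.7% in gamma. The last, which ends the coding sequence, was 2712 bp with 41.1% in alpha and 1971 bp with 53.4% in gamma. Most of it lies past the coding sequence, and its coding part had 50.3% in alpha and 58.5% in gamma. The first and second constant exons are shorter than the median width of a Chd1 KO peak, 299 bp.

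**Figure D4:**
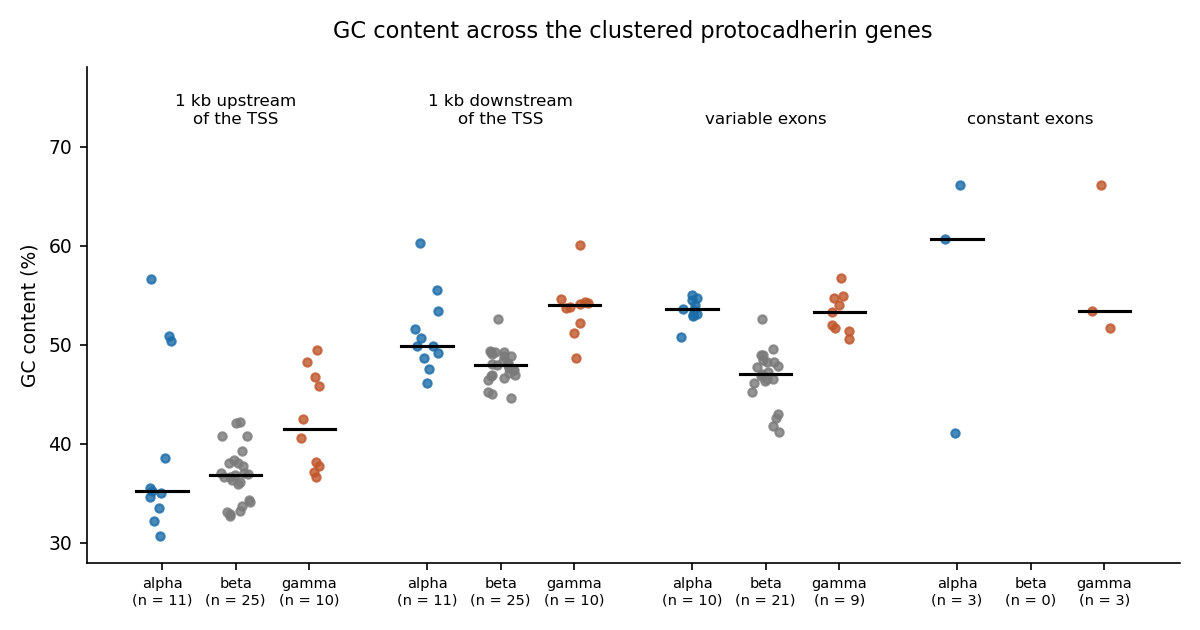
GC content (%) of the 1 kb before and after each TSS, of the variable exons and of the constant exons, 1 point per TSS or exon, with the median of each cluster as a bar. The 1 kb before the TSS is poorer than the 1 kb after it in each cluster, and the variable exons lie between 41.2% and 56.8%.

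The clusters consist of related copies, and reads that map to several copies were removed by the authors' filter on mapping quality. As a measure of this, the share of positions whose 50-bp sequence occurs at only 1 place in the genome was between 86.9% and 100% within 1 kb of the member TSSs, with a median of 98.3%. It was 80.8% to 100% in the variable exons, with a median of 96.1%, and at least 99.7% in the constant exons. It fell below 90% at 7 of 46 promoters and 11 of 40 variable exons. Over the whole clusters, with the sequence between promoters and exons, it was 83.2% in alpha, 87.6% in beta and 96.6% in gamma. The part of these values in the absence of peaks was not tested, and since the measure counts exact matches only, reads with sequencing errors may be lost from more positions.

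The protocadherins outside the clusters were too few for a contrast with the clustered genes. Of 13 protocadherin genes outside the clusters, 1 (7.69%) had a Chd1 KO summit, against 15.7% of all protein-coding genes. This was Pcdh1, whose peak bounds the clusters on the downstream side and whose promoter had a GC content of 63.9% and a richest stretch of 82.0%. The promoters of the 13 had a median of 52.4% and those of the 24 clustered genes 42.1%, both taken at the outermost TSS of each gene. Of all genes with 50% to 55% GC, 10.6% had a summit, and 1 of 13 genes does not depart from that share. Of 8 classical cadherins, which join cells through calcium-dependent contacts, 1 had a summit, Cdh2 (N-cadherin), with a fold enrichment of 5.02, 20 reads and a promoter GC content of 63.8%. Of 39 Hox genes, another set of clustered genes, 11 (28.2%) had a summit. Hoxd3 and Hoxd4 were counted through the same peak. The promoter GC content of the Hox genes had a median of 54.6% and ranged from 44.9% to 67.2%, and a share matched to it was not computed. No gene of these lists had a control summit.

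Of 12 genes whose products act at the clustered protocadherin promoters, 4 (33.3%) had a Chd1 KO summit within 1 kb of a TSS and 8 had none, against 15.7% of all protein-coding genes. The promoter GC content of the 12 had a median of 60.6% and ranged from 46.5% to 68.1%. Of all genes with 45% to 50% GC, 3.83% had a summit. The share was 54.8% with 60% to 65% and 71.5% with 65% to 70%. A share matched to the GC content of each of the 12 was not computed. Dnmt3b, which methylates DNA, had a peak with 29 reads and a fold enrichment of 6.0, its summit 30 bp downstream of a TSS. Rad21, a cohesin subunit, had 23 reads and a fold of 5.17. Wapal, which releases cohesin from DNA, had 18 reads and a fold of 4.11, and Ctcf, the insulator protein, had 20 reads and a fold of 3.52 with its summit 913 bp downstream of its TSS. The sequences under 3 of these peaks are shown as examples of the G and C runs found under Chd1 KO peaks. Each is 30 bases of the plus strand of mm9, with the longest run of G and C in the peak in capitals. The first lies upstream of the Dnmt3b TSSs (chr2:153475107-153475136, the first 30 bases of a 34-bp run) and within a neighbouring annotated gene, the second in the first intron of the protein-coding Ctcf transcript, which a noncoding Ctcf transcript uses as exon (chr8:108161395-108161424), with a run of 22 bp, and the third in the first intron of Rad21 (chr15:51823002-51823031) with a run of 14 bp.
Dnmt3b: GCGGCGGGGGCGCCCCCCGGGCGGGGGCGG
Ctcf: cgctCGCCGCCCCCGCCGGGCCCCGCtgcg
Rad21: gccgcggaGCCCGCGCCCCGGGagcaaccc
The longest run within 1 kb of a clustered protocadherin TSS was 20 bp at Pcdha11-202 and at most 13 bp at the other 45 TSSs.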

How the data were processed

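DSB-seq peak lists of Chd1 KO and control ES cells were analyzed. Per the methods of the study, the authors mapped reads to mm9 with Bowtie2, removed those with a mapping quality below 13 and kept 1 read per position. Replicates were then combined, peaks were called with MACS2 (reads extended to 200 bp, q-value cutoff of 0.05) and blacklisted regions were removed. The deposited fold enrichment is a ratio of summit reads to local background within 1 combined library, the deposited −log10 p-value and q-value are also those of the authors, and the deposited score is an integer that was not used further. ChIP-seq samples and genome-wide signal were not analyzed here.

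Summit reads and background were recovered from the fold enrichment and the Poisson p-value, adding 1 to both terms of the fold, and the depth from the lowest background over an effective genome of 1870000000 bp. A summit counted for a TSS within 1 kb of it, and overlapping windows were kept. The GC content of a gene was taken at its outermost TSS. A variable exon was a first exon of at least 1000 bp with coding sequence, and a constant exon a later exon shared by transcripts with different first exons. The design had set exons apart by gene symbol, which cannot separate them in this annotation. Because there is 1 list per genotype, no test was run, and members are set beside all protein-coding genes. Shares carry Wilson 95% intervals, and a count of 0 the limit of 3 counts. The rule for naming members took those with a summit, the 5 with the highest promoter GC content, the 3 nearest to a summit and the first and last of each cluster; values of other members that stand out were chosen after they were seen. The members, the windows and the gene lists were chosen with earlier results of these data known. Python 3.11.15, NumPy 2.4.6, SciPy 1.17.1, pandas 2.3.3, statsmodels 0.14.6, numba 0.67.0, pysam 0.24.0, samtools 1.23.1 and Matplotlib 3.10.9 were used, and the scripts were tested on simulated peaks, exons and sequence.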

Additional observations from a re-analysis of the deposited data

How the results depend on the processing

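The 4 counts of clustered protocadherin genes and exons with a summit were 0 and remained 0 under all 21 alternatives. The nearest Chd1 KO summit lay 370 kb from any member and the nearest control summit 50.6 Mb away. Stricter cutoffs and narrower windows can only remove summits. None of these alternatives could therefore have given another count. For the Chd1 KO count at promoters these were windows of 500 bp and 2 kb, a window from 1 kb upstream to 100 bp downstream, q-value cutoffs of 0.01 and 0.001, a fold enrichment of at least 5, the peak midpoint, any overlap of the peak, the TSSs of all transcripts and the outermost TSS. The control count was recomputed only with a window of 2 kb and with any overlap. For the exons they included any overlap, the midpoint, a q-value cutoff of 0.001, the coding part and, for variable exons, exons told apart by gene symbol, an alternative added after the data were seen. The last gave no constant exons. The median GC content of the promoters was 42.9% within 1 kb, 44.3% within 500 bp and 45.5% within 250 bp of the TSS. The share of protein-coding genes with a Chd1 KO summit at the GC content of the members was 1.80%, 2.04% with GC content within 500 bp, and 0.301% among autosomal genes with 1 TSS, a set without the genes that have several windows in which to meet a summit. Members with several TSSs were kept when that last share was weighted, so it does not match them in number of windows. No paired analysis was possible because the authors combined the replicates before peak calling, and for the same reason no replicate could be left out. Sites with fewer than 13 extended reads are beyond the reach of the lists, so that weaker or scattered breaks in the clusters were not detectable.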
